A study of Mus musculus with 6 samples.

Results

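The genes described here are 28 genes of cholesterol synthesis, uptake and efflux, chosen by symbol, and all 28 were found among the 13706 genes of the deposited expression table. They comprise 18 enzymes that build cholesterol from acetoacetyl-CoA, 4 genes of the sterol-sensing machinery, the sterol carrier Stard4, and 5 genes of cholesterol efflux and receptor decay. The study asked how loss of the transcriptional coactivators YAP (Yap1) and TAZ (Wwtr1) alters RNA in primary mouse dermal fibroblasts, and how inhibition of STING, a sensor in the pathway that responds to cytosolic DNA, alters it further. YTcKO+H151 cells carried the R26-CAG-CreER transgene, a tamoxifen-activated Cre expressed from the ROSA26 locus, together with Yap1 fl/fl and Wwtr1 fl/fl, and received 1 µM H-151, a STING inhibitor that 1 of the protocols spells H-15. YTcKO cells carried the same Cre and floxed alleles and no inhibitor was named for them. Control cells carried Yap1 fl/fl and Wwtr1 fl/fl without Cre. All 3 groups were grown in DMEM-F12 with 20% serum and 1 µM 4-hydroxytamoxifen for 72 hours, and each was measured in 2 QuantSeq libraries, which count RNA by a tag near its 3′ end. Whether libraries within each group are independent cultures or animals is not stated, and p-values here reflect only library-to-library spread, which could be technical. Presence of Cre and loss of YAP/TAZ cannot be told apart in this design. None of the 3 groups was control cells with H-151, so the response to H-151 without the knockout was not measured.

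Cells make cholesterol through the mevalonate pathway, in which acetyl units are joined into isoprenoids, isoprenoids into squalene, and squalene is closed into lanosterol, which a series of oxidations and reductions turns into cholesterol. When membrane sterol is low, SCAP carries the transcription factor SREBP2 (Srebf2) from the endoplasmic reticulum to the Golgi for cleavage, and the released factor raises transcription of nearly every enzyme of the pathway. When sterol is high, INSIG proteins hold SCAP back. Oxysterols, in turn, activate the liver X receptors (LXRs), which raise the exporters ABCA1 and ABCG1 and the ubiquitin ligase MYLIP, which marks lipoprotein receptors for breakdown.

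Libraries held 12444986 to 15308100 reads in listed genes. Levels are given as scaled CPM, the deposited CPM, which express the reads of a gene relative to an effective library size, and 1 read equalled 0.0625 to 0.0871 scaled CPM. Changes are log2 differences of scaled CPM + 1 with their standard errors, a scale that understates changes of low genes, and a gene rose or fell where its limma p-value, adjusted over the 13648 genes tested, was under 0.05. Wwtr1 stood at 3.07 and 4.00 scaled CPM in YTcKO+H151 cells, 4.79 and 5.03 in YTcKO cells and 213 and 218 in control cells. Yap1 stood at 45.3 and 42.4 scaled CPM in YTcKO+H151 cells, 66.4 and 68.3 in YTcKO cells and 122 and 128 in control cells. All 10 fibroblast markers looked at had values, summing to 25695 and 24291 scaled CPM in YTcKO+H151 cells, 37308 and 38809 in YTcKO cells and 31446 and 32213 in control cells. The fibroblast markers did not all follow these sums, to which Col1a2 gave 10473 and 9749 scaled CPM in YTcKO+H151 cells. In YTcKO+H151 against YTcKO cells 4 rose and 6 fell (19.4% and 21.4% of all genes tested). Against control cells 2 rose and 5 fell with H-151 (11.5% and 11.4%), and 4 rose and 1 fell without it (18.2% and 14.2%). Markers of other cells were present as well. For macrophages 15 of 16 markers had values and none was at 0, with sums of 4274 and 3501 scaled CPM in YTcKO+H151 cells, 1702 and 1698 in YTcKO cells and 1595 and 1371 in control cells. For adipocytes 8 of 10 markers had values and none was at 0, with sums of 2274 and 1473 scaled CPM in YTcKO+H151 cells, 576 and 687 in YTcKO cells and 725 and 575 in control cells. All 15 macrophage and all 8 adipocyte markers measured rose in YTcKO+H151 against YTcKO cells (19.4% of all genes tested). Against control cells 14 and 8 of them rose (11.5%). In YTcKO against control cells 4 macrophage markers rose and 2 fell, and 3 adipocyte markers fell, where 18.2% of all genes rose and 14.2% fell. The macrophage counts in that comparison were near these shares. The part of the markers in the results below was not tested. In such bulk RNA, fewer cells of a type and less RNA per cell cannot be told apart.

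The promoters of the sterol genes are shown first because the members moved together and because SREBP2 acts on such sequences with the factor NF-Y. Of the 28 members, 23 had a start-site window in RefSeq (GRCm38.p6); Fdps, Fdft1, Sqle, Stard4 and Abcg1 are named only. The windows ran from 250 bases before to 50 after the start and were searched on both strands. The NF-Y box CCAAT was present in 18 of the 23 members and in 14 of the 15 enzymes with a window, against 42.9% of the 10267 tested genes with a window. A full sterol response element, spelled TCACNCCAC, was found in 1 member, Hmgcs1, and in 1.44% of all 27025 genes with a window. Its shorter core CACNCCA, which lies inside the full element, was found in 6 of the 23 members (Acat2, Hmgcs1, Msmo1, Srebf2, Insig1 and Insig2) and in 20.7% of the tested genes. The site GGAATG, bound by the TEAD partners of YAP/TAZ, was in 0 of the 23 members and in 14.5% of the tested genes. The LXR element DR4 was in 0 of the 23 and in 0.00974% of the tested genes. These matches describe letters in a short window and carry no information on binding. For 20 of the 23 members the end of the window was found in the gene's own GENCODE transcripts; for Hmgcs1, Nsdhl and Sc5d it was not, so their positions hold for the RefSeq start alone.

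The 200 bases before the start are printed 5′ to 3′ on the strand of the gene for the 5 members with the largest rise in YTcKO+H151 against control cells among those with a single window. Hmgcs1 is added because it holds the full element, and Nr1h2 because it passed in no comparison. Capitals mark CCAAT or its reverse ATTGG, the full element in Hmgcs1, and the short core in Insig1 and Msmo1.
Mvd (chr8:122443423-122443622, minus strand): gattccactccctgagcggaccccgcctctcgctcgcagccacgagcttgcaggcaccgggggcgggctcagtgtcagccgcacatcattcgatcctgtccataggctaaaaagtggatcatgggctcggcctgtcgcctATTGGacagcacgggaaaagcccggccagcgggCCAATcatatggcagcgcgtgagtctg
Nsdhl (chrX:72918321-72918520, plus strand): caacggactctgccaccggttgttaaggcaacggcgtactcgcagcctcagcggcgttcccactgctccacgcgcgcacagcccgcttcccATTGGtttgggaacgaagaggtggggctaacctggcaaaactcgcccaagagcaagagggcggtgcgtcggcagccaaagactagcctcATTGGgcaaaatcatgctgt
Insig1 (chr5:28071212-28071411, plus strand): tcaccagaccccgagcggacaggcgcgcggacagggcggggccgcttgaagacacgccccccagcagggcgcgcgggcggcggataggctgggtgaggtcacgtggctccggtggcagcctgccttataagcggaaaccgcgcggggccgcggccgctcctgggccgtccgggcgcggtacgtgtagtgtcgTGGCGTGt
Lss (chr10:76531405-76531604, plus strand): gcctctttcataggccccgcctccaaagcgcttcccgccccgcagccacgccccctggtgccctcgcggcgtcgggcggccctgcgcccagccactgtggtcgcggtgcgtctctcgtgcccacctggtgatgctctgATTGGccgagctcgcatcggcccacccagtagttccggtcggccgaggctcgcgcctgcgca
Msmo1 (chr8:64733579-64733778, minus strand): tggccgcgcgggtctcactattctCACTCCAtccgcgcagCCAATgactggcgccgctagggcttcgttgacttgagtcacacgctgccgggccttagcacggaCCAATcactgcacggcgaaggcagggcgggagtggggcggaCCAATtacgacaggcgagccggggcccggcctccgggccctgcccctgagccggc
Hmgcs1 (chr13:119690151-119690350, plus strand): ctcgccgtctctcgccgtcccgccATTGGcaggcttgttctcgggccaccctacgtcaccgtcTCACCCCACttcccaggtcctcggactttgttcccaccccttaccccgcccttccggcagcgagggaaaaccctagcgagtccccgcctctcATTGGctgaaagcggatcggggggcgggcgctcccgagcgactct
Nr1h2 (chr7:44553966-44554165, minus strand): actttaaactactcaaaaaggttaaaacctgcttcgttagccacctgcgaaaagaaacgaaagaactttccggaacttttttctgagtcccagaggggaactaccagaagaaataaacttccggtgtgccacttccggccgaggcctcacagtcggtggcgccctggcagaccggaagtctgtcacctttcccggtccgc

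In the Hmgcs1 promoter the full element lay at bases -137 to -129 before the start, between an ATTGG at -176 to -172 and another at -45 to -41. Mvd held a pair on opposite strands that point away from each other, ATTGG at -60 to -56 and CCAAT at -27 to -23. Msmo1 held 3 copies of CCAAT on the strand of the gene, and Nsdhl held ATTGG at -109 to -105 and -20 to -16. Insig1 held the short core on the reverse strand, at -8 to -2. The Nr1h2 window held none of the motifs searched.

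As deposited, the summed levels of the sterol synthesis enzymes were highest in YTcKO+H151 cells, intermediate in YTcKO cells and lowest in control cells. Their 18 levels summed to 2013 and 2349.7 scaled CPM in YTcKO+H151 cells, 1596 and 1493 in YTcKO cells and 1139 and 1346 in control cells. On the deposited scaling the sums of the groups did not overlap. Relative to its column total, control library 2 lay above YTcKO library 2, so the YTcKO and control sums then overlapped. With columns scaled to equal totals, the enzymes' median log2 change in YTcKO against control cells was 0.19, against 0.35 as deposited. In YTcKO+H151 against control cells 25 of the 28 members rose, among them all 18 enzymes, where 11.5% of all genes tested were called higher. The members' median log2 change was 0.71 and the enzymes' 0.84, against 0.00 over all genes. In YTcKO+H151 against YTcKO cells 18 members rose, 13 of them enzymes, against 19.4% of all genes; the members' median was 0.46 and that of all genes 0.02. In YTcKO against control cells 12 members rose, 10 of them enzymes, against 18.2% of all genes; the members' median was 0.22 and that of all genes -0.01. The comparisons share libraries, so each set of changes is given by itself.

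No member fell by limma in any of the 3 comparisons, where 11.4% (YTcKO+H151 against control), 21.4% (YTcKO+H151 against YTcKO) and 14.2% (YTcKO against control) of all genes were called lower. At an unadjusted limma p under 0.05, 2 members were lower in YTcKO+H151 than in YTcKO cells, where 3356 of the 13648 genes tested were lower. In the other comparisons 0 members were lower, against 2311 genes (YTcKO+H151 against control) and 2679 genes (YTcKO against control). Tested on the recovered reads, edgeR called 1 member lower in YTcKO+H151 against YTcKO cells, Insig2, and 0 in the other comparisons, and DESeq2 called 0 in each. In 14 of the 28 members, 12 of them enzymes, both YTcKO+H151 libraries lay above both YTcKO libraries, which lay above both control libraries; this order held for 4.13% of all genes tested. The 14 were Acat2, Mvk, Pmvk, Mvd, Fdps, Fdft1, Lss, Tm7sf2, Msmo1, Ebp, Sc5d, Dhcr7, Insig1 and Abcg1. This order was counted on the deposited scaling only. With equal totals Mvk, Ebp and Abcg1 changed by -0.044, -0.014 and -0.010 in YTcKO against control cells, so these genes did not keep it. Mvd, Fdps and Sc5d did not keep it either, as YTcKO library 2 then lay below control library 2.

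**Figure D1:**
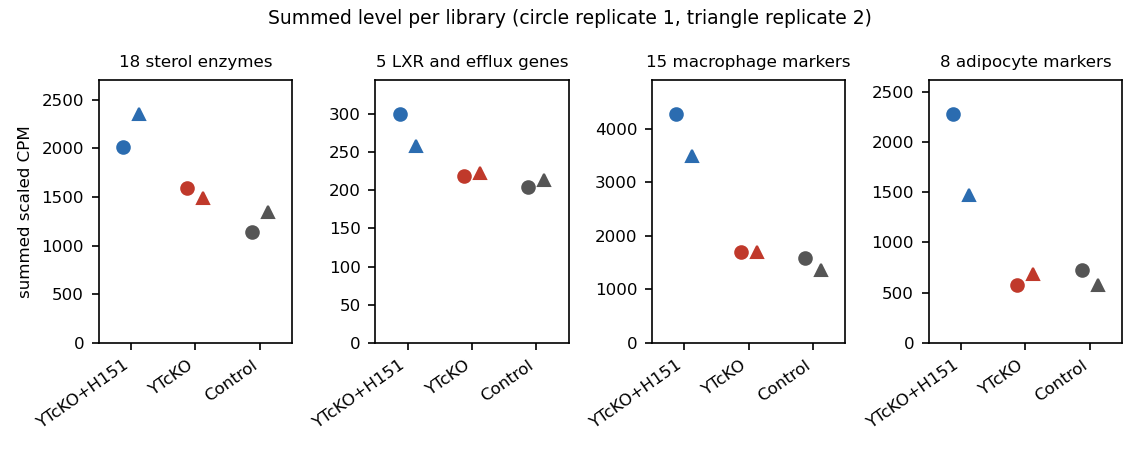
Summed scaled CPM per library of the sterol enzymes, of the LXR and efflux genes, and of macrophage and adipocyte markers (panels), with YTcKO+H151 at the left, YTcKO in the middle and control at the right; circles are libraries 1 and triangles libraries 2. On the deposited scaling shown, the sums of the 18 sterol enzymes form steps that do not overlap. They are 2013 and 2350 in YTcKO+H151, 1596 and 1493 in YTcKO, and 1139 and 1346 in control libraries. With columns scaled to equal totals, the YTcKO and control sums overlap.

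The enzymes also moved together between libraries of the same group. In YTcKO+H151 cells all 18 enzymes were higher in library 2 than in library 1, by a median of 0.25 on the log2 scale, where 49.6% of all genes were. In control cells 16 of 18 were higher in library 2 (median 0.21, 50.5% of all genes), and in YTcKO cells 4 of 18 (median -0.09, 49.8% of all genes). The spread within a group was thus shared across the pathway, and the 18 enzymes are not independent measurements of a condition. The macrophage and adipocyte sums ran the other way within the YTcKO+H151 group, being lower in library 2, where the enzymes were higher.

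The counts in YTcKO against control cells rested in part on single libraries. Of the 12 members called higher, 6 remained called without any 1 of the 4 libraries compared and under each of the other settings tried, namely Pmvk, Lss, Cyp51, Nsdhl, Dhcr7 and Mylip. When a library was left out both the change and its error could move, and the value without it is given with each lost call. The count was 6 without control library 1, 13 without control library 2, 6 without YTcKO library 1 and 7 without YTcKO library 2. It was also 6 when columns were scaled to equal totals, which moved the median of all genes to -0.16, and the members' median to 0.06. The calls lost were Acat2 (0.20), Fdps (0.24), Fdft1 (0.17), Tm7sf2 (0.37), Msmo1 (0.17) and Insig1 (0.32). Under that scaling Scap and Nr1h3 were called lower in YTcKO cells (log2 changes of -0.28 and -0.40). Quantile normalization lost the calls of Acat2, Fdps, Fdft1 and Msmo1, and median scaling those of Acat2 and Fdps. Quantile normalization also lost Tm7sf2 in YTcKO+H151 against YTcKO cells (0.43) and Idi1 in YTcKO+H151 against control cells (0.72). With equal totals 29.9% of the genes called in YTcKO against control cells were higher, under quantile normalization 39.1% and under median scaling 45.5%, against 56.2% as deposited. For YTcKO+H151 against YTcKO cells the share called higher was 71.2% with equal totals and 61.9% with quantile normalization, against 47.5% as deposited, and 12 of 18 calls held under every setting. For YTcKO+H151 against control cells 19 of 25 calls did.

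**Figure D2:**
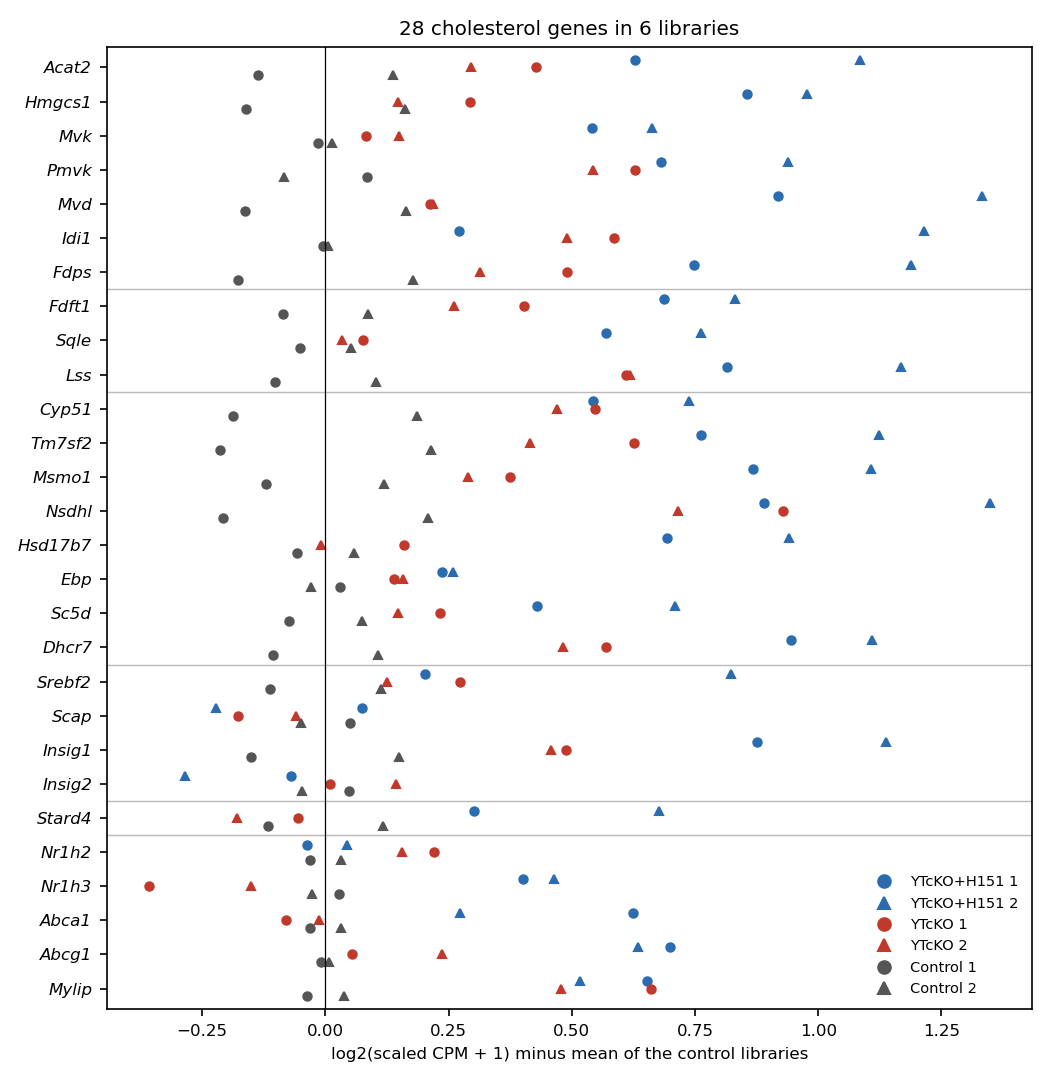
Each of the 28 genes (rows, grouped by role) in the 6 libraries, as log2(scaled CPM + 1) minus the mean of the 2 control libraries; colours are groups (YTcKO+H151 blue, YTcKO red, control grey), circles are libraries 1 and triangles libraries 2. For most enzymes the blue points lie farthest right and the red points between blue and grey, while Scap, Insig2 and Nr1h2 depart from that order and Nr1h3 is lowest in YTcKO cells.

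The early steps lead from acetoacetyl-CoA to farnesyl diphosphate. Of these 7 enzymes, all 7 rose in YTcKO+H151 against control cells, 5 in YTcKO+H151 against YTcKO cells and 3 in YTcKO against control cells. Hmgcs1, which makes HMG-CoA, the substrate of the step that commits carbon to the pathway, had 533 and 580.2 scaled CPM in YTcKO+H151 cells, 360.5 and 326 in YTcKO cells and 263 and 329 in control cells. Both YTcKO+H151 libraries were far above the other 4, and the YTcKO and control libraries overlapped. Hmgcs1 rose by 0.70 ± 0.09 (adjusted p = 1.13e-05) against YTcKO cells and by 0.92 ± 0.09 (adjusted p = 2e-06) against control cells. The difference between YTcKO and control cells was 0.22 ± 0.09 (adjusted p = 0.0752). It passed without control library 2 (0.38, adjusted p = 0.00638). Mvd, which decarboxylates mevalonate diphosphate to isopentenyl diphosphate, had 59.5 and 79.5 scaled CPM in YTcKO+H151 cells, 36.0 and 36.2 in YTcKO cells and 27.6 and 34.8 in control cells. It rose in YTcKO+H151 cells by 0.91 ± 0.13 (adjusted p = 2.4e-05) against YTcKO and by 1.13 ± 0.13 (adjusted p = 8.04e-06) against control cells. On the deposited scaling its YTcKO and control levels did not overlap, though they differed by 0.22 ± 0.13 (adjusted p = 0.215), short of the threshold.

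Mvk, the kinase that phosphorylates mevalonate, had 49.5 and 53.9 scaled CPM in YTcKO+H151 cells, 35.7 and 37.5 in YTcKO cells and 33.3 and 34.0 in control cells. It rose in YTcKO+H151 cells by 0.49 ± 0.09 (adjusted p = 0.000421) against YTcKO and by 0.60 ± 0.09 (adjusted p = 0.000144) against control cells, with 0.12 ± 0.09 (adjusted p = 0.359) between YTcKO and control cells. Pmvk, the next kinase, had 30.6 and 36.8 scaled CPM in YTcKO+H151 cells, 29.4 and 27.7 in YTcKO cells and 19.9 and 17.6 in control cells. Its libraries formed steps. Pmvk rose in YTcKO over control cells by 0.58 ± 0.12 (adjusted p = 0.000911), and the difference between YTcKO+H151 and YTcKO cells was 0.23 ± 0.12 (adjusted p = 0.135). That difference passed without YTcKO+H151 library 1 (0.35, adjusted p = 0.0382) and with equal totals (0.40, adjusted p = 0.0104). Against control cells, Pmvk rose by 0.81 ± 0.12 (adjusted p = 9.01e-05) in YTcKO+H151 cells.

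Fdps, which condenses isoprene units into farnesyl diphosphate, had 44.9 and 61.2 scaled CPM in YTcKO+H151 cells, 37.4 and 33.0 in YTcKO cells and 23.1 and 29.9 in control cells. It rose by 0.97 ± 0.14 (adjusted p = 9.06e-05) in YTcKO+H151 against control cells, by 0.57 ± 0.14 (adjusted p = 0.00373) against YTcKO cells and by 0.40 ± 0.14 (adjusted p = 0.0356) in YTcKO against control cells. Its transcript shares 1124 exon bases with the annotated gene Gm43738 on the same strand near its 3′ end, so its tags may be split between them. The call against YTcKO cells was lost without YTcKO library 2 (log2 change 0.48, adjusted p = 0.0828), and the change was 0.35 without YTcKO+H151 library 2. The call of YTcKO over control cells was lost without control library 1 (log2 change 0.22, adjusted p = 0.336), YTcKO library 1 (0.31, adjusted p = 0.275) or YTcKO library 2 (0.49, adjusted p = 0.0945). Acat2, the thiolase that makes acetoacetyl-CoA in the cytosol, had 82.4 and 113 scaled CPM in YTcKO+H151 cells, 71.6 and 65.2 in YTcKO cells and 48.1 and 58.4 in control cells. It rose by 0.86 ± 0.12 (adjusted p = 9.29e-05) in YTcKO+H151 against control cells, by 0.49 ± 0.12 (adjusted p = 0.00412) against YTcKO cells, and by 0.36 ± 0.12 (adjusted p = 0.0334) in YTcKO against control cells. The call against YTcKO cells was lost without YTcKO library 2 (log2 change 0.43, adjusted p = 0.0864) or YTcKO+H151 library 2 (0.27, adjusted p = 0.0537). The call of YTcKO over control cells was lost without control library 1 (log2 change 0.22, adjusted p = 0.293), YTcKO library 1 (0.29, adjusted p = 0.258) or YTcKO library 2 (0.43, adjusted p = 0.108). Acat2 has a close relative in the mouse genome, Acat3, with which reads could be shared. Idi1, the isomerase of isopentenyl diphosphate, was at a low level, with 1.76 and 4.32 scaled CPM in YTcKO+H151 cells, 2.44 and 2.21 in YTcKO cells and 1.28 and 1.30 in control cells, from 18 to 69 reads per library. Its differences were 0.21 ± 0.26 (adjusted p = 0.563) in YTcKO+H151 against YTcKO and 0.54 ± 0.26 (adjusted p = 0.129) in YTcKO against control cells. Without YTcKO+H151 library 1 the change was 0.68, adjusted p = 0.0462, against YTcKO and 1.22 against control cells. Its change in YTcKO+H151 against control cells, 0.74 ± 0.26, just met the threshold (adjusted p = 0.04999) and was lost without control library 1 (log2 change 0.74, adjusted p = 0.154), control library 2 (0.75, adjusted p = 0.165) or YTcKO+H151 library 2 (0.27, adjusted p = 0.547).

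**Figure D3:**
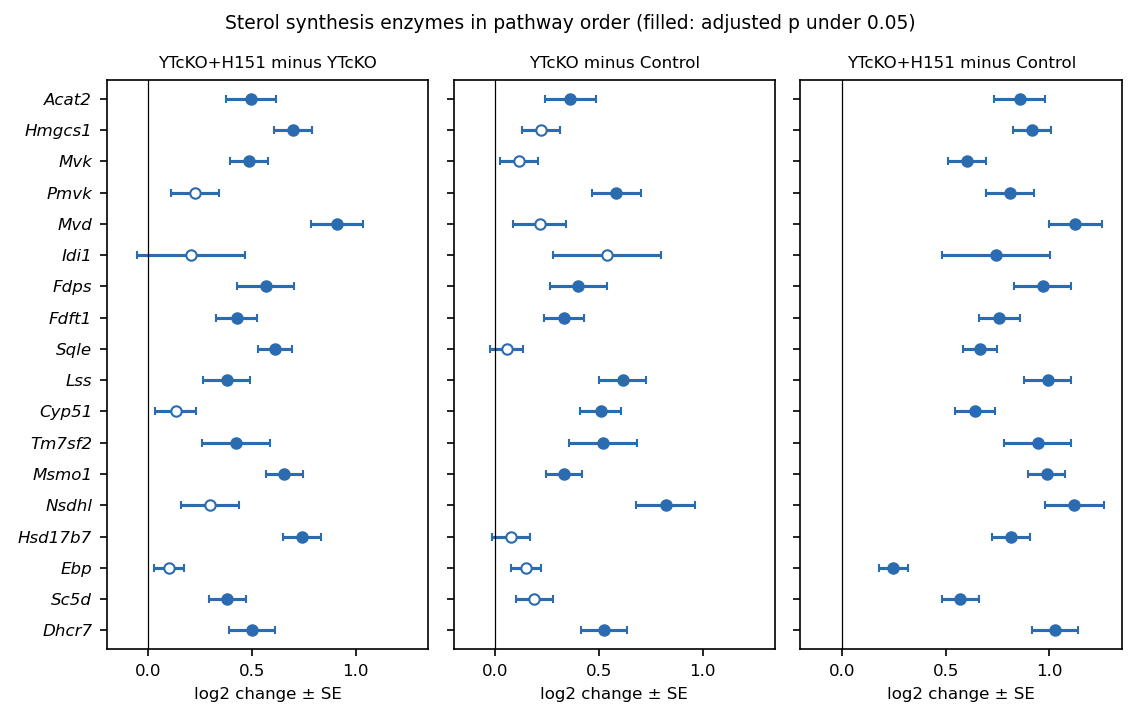
Log2 change with its standard error for the 18 enzymes in pathway order, from acetoacetyl-CoA at the top to cholesterol at the bottom, in each of the 3 comparisons; filled points passed an adjusted p of 0.05. All 18 points are filled for YTcKO+H151 against control, 13 for YTcKO+H151 against YTcKO and 10 for YTcKO against control.

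Squalene and lanosterol synthesis comprise 3 enzymes that commit farnesyl diphosphate to sterols, and all 3 rose in YTcKO+H151 cells against each of the other groups. Sqle, squalene epoxidase, had 107 and 123 scaled CPM in YTcKO+H151 cells, 76.1 and 73.8 in YTcKO cells and 69.5 and 74.8 in control cells. Its YTcKO and control libraries overlapped, with a difference of 0.06 ± 0.08 (adjusted p = 0.647). Both YTcKO+H151 libraries lay above them, by 0.61 ± 0.08 (adjusted p = 1.53e-05) against YTcKO and 0.67 ± 0.08 (adjusted p = 1.9e-05) against control cells. Lss, which closes the ring to lanosterol, had 52.3 and 67.0 scaled CPM in YTcKO+H151 cells, 45.2 and 45.5 in YTcKO cells and 27.2 and 31.5 in control cells. The libraries formed steps. Lss rose by 0.99 ± 0.11 (adjusted p = 8.09e-06) in YTcKO+H151 against control cells, by 0.38 ± 0.11 (adjusted p = 0.0129) against YTcKO cells and by 0.61 ± 0.11 (adjusted p = 0.000437) in YTcKO against control cells. The rise over YTcKO cells was lost without YTcKO library 1 (log2 change 0.37, adjusted p = 0.0943), YTcKO library 2 (0.38, adjusted p = 0.0866) or YTcKO+H151 library 2 (0.20, adjusted p = 0.181). Fdft1, squalene synthase, had 53.3 and 59.0 scaled CPM in YTcKO+H151 cells, 43.6 and 39.4 in YTcKO cells and 30.8 and 34.8 in control cells. It rose by 0.76 ± 0.10 (adjusted p = 3.09e-05) in YTcKO+H151 against control cells, by 0.43 ± 0.10 (adjusted p = 0.00226) against YTcKO cells, and by 0.33 ± 0.10 (adjusted p = 0.0151) in YTcKO against control cells. The second value was lost without YTcKO library 2 (log2 change 0.35, adjusted p = 0.0509) and the third without control library 1 (log2 change 0.25, adjusted p = 0.153) or YTcKO library 1 (0.26, adjusted p = 0.161). Fdft1 shares 774 exon bases at its 3′ end with Ctsb on the opposite strand, and the strand setting of the counting is not given in the sources used here, so its level is uncertain.

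The late steps, from lanosterol to cholesterol, divided by comparison. All 8 enzymes rose in YTcKO+H151 against control cells, and 5 rose in each of the other comparisons. Msmo1, which oxidises the methyl groups of lanosterol, had 265 and 313 scaled CPM in YTcKO+H151 cells, 188 and 177 in YTcKO cells and 133 and 157 in control cells. Its libraries formed steps without overlap. It rose by 0.99 ± 0.09 (adjusted p = 6.89e-07) in YTcKO+H151 against control cells, by 0.66 ± 0.09 (adjusted p = 1.73e-05) against YTcKO cells and by 0.33 ± 0.09 (adjusted p = 0.00849) in YTcKO against control cells. The last of these was lost without control library 1 (log2 change 0.21, adjusted p = 0.147), YTcKO library 1 (0.29, adjusted p = 0.123) or YTcKO library 2 (0.38, adjusted p = 0.0534). Dhcr7, the reductase that turns dehydrocholesterol into cholesterol, had 37.1 and 41.7 scaled CPM in YTcKO+H151 cells, 28.4 and 26.7 in YTcKO cells and 17.4 and 20.3 in control cells. It rose by 1.03 ± 0.11 (adjusted p = 5.51e-06) in YTcKO+H151 against control cells. The steps of YTcKO+H151 over YTcKO, 0.50 ± 0.11 (adjusted p = 0.00183), and of YTcKO over control, 0.53 ± 0.11 (adjusted p = 0.0016), were close in size. Each of the 3 calls held without any 1 library.

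Nsdhl and Cyp51 rose in YTcKO against control cells, and their differences between YTcKO+H151 and YTcKO cells depended on the setting. Nsdhl, a sterol dehydrogenase that works with Msmo1, had 62.5 and 86.2 scaled CPM in YTcKO+H151 cells, 64.2 and 55.2 in YTcKO cells and 28.6 and 38.6 in control cells. Both groups with Cre lay above both control libraries, by 1.12 ± 0.14 (adjusted p = 2.63e-05) with H-151 and 0.82 ± 0.14 (adjusted p = 0.00026) without it, and they overlapped each other (0.30 ± 0.14, adjusted p = 0.107). The difference between them passed without YTcKO+H151 library 1 (0.53, adjusted p = 0.0022), with quantile normalization (0.43, adjusted p = 0.0273) and with equal totals (0.47, adjusted p = 0.0117). Cyp51, the sterol demethylase that acts first on lanosterol, had 289 and 331 scaled CPM in YTcKO+H151 cells, 289.8 and 275 in YTcKO cells and 174 and 226 in control cells. It rose by 0.51 ± 0.10 (adjusted p = 0.000727) in YTcKO and by 0.64 ± 0.10 (adjusted p = 0.000168) in YTcKO+H151 against control cells, with 0.13 ± 0.10 (adjusted p = 0.305) between the groups with Cre. The difference between the groups with Cre passed with quantile normalization (0.37, adjusted p = 0.0103) and with equal totals (0.31, adjusted p = 0.0152). Without control library 1 the rise in YTcKO cells was 0.32. Cyp51 shares 166 exon bases at its 3′ end with Akap9 on the opposite strand, so its level is uncertain as well.

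Hsd17b7 and Sc5d rose in YTcKO+H151 cells and had no called difference between YTcKO and control cells. Hsd17b7, which reduces the keto group left by Nsdhl, had 105 and 125 scaled CPM in YTcKO+H151 cells, 72.4 and 64.3 in YTcKO cells and 62.2 and 67.4 in control cells. It rose in YTcKO+H151 cells by 0.74 ± 0.09 (adjusted p = 6.59e-06) against YTcKO and 0.82 ± 0.09 (adjusted p = 7.84e-06) against control cells, while the overlapping YTcKO and control libraries differed by 0.07 ± 0.09 (adjusted p = 0.578). Sc5d, a sterol desaturase, had 125 and 152 scaled CPM in YTcKO+H151 cells, 109 and 103 in YTcKO cells and 88.1 and 97.6 in control cells. It rose by 0.38 ± 0.09 (adjusted p = 0.00277) against YTcKO and 0.57 ± 0.09 (adjusted p = 0.000207) against control cells, and the call against YTcKO cells was lost without YTcKO library 2 (log2 change 0.34, adjusted p = 0.06). That change was 0.24 without YTcKO+H151 library 2. The difference of Sc5d between YTcKO and control cells was 0.19 ± 0.09 (adjusted p = 0.12). Whether the steps of a gene differed in size, here or for the other members, was not tested.

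Tm7sf2, a sterol reductase, had 18.5 and 24.0 scaled CPM in YTcKO+H151 cells, 16.7 and 14.3 in YTcKO cells and 8.90 and 12.3 in control cells. It rose by 0.94 ± 0.16 (adjusted p = 0.000491) in YTcKO+H151 against control cells. It rose by 0.42 ± 0.16 (adjusted p = 0.0493) over YTcKO cells, and YTcKO over control cells by 0.52 ± 0.16 (adjusted p = 0.0224). The rise over YTcKO cells was lost without YTcKO library 1 (log2 change 0.53, adjusted p = 0.0916), YTcKO library 2 (0.32, adjusted p = 0.299) or YTcKO+H151 library 2 (0.24, adjusted p = 0.331). The rise of YTcKO over control cells was lost without control library 1 (log2 change 0.31, adjusted p = 0.251), YTcKO library 1 (0.41, adjusted p = 0.205) or YTcKO library 2 (0.62, adjusted p = 0.0624). Ebp, the sterol isomerase, had the smallest of the 18 enzymes' changes in YTcKO+H151 against control cells, with 96.5 and 98.0 scaled CPM in YTcKO+H151 cells, 90.1 and 91.3 in YTcKO cells and 83.5 and 80.1 in control cells. Its rise in YTcKO+H151 against control cells was 0.25 ± 0.07 (adjusted p = 0.0189) and was lost without control library 1 (log2 change 0.28, adjusted p = 0.0552), control library 2 (0.22, adjusted p = 0.145) or YTcKO+H151 library 2 (0.24, adjusted p = 0.0501). Its other differences were 0.10 ± 0.07 (adjusted p = 0.288) against YTcKO cells and 0.15 ± 0.07 (adjusted p = 0.127) between YTcKO and control cells. The difference against YTcKO cells passed with quantile normalization (0.26, adjusted p = 0.00876) and with equal totals (0.28, adjusted p = 0.00491).

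Of the sterol-sensing genes, Insig1 followed the enzymes and Scap and Insig2 did not pass in any comparison. Insig1, itself an SREBP target whose protein retains SCAP, had 33.6 and 40.6 scaled CPM in YTcKO+H151 cells, 25.5 and 25.0 in YTcKO cells and 16.0 and 20.0 in control cells. Its libraries formed steps. It rose by 1.01 ± 0.12 (adjusted p = 2.1e-05) in YTcKO+H151 against control cells, by 0.53 ± 0.12 (adjusted p = 0.00261) against YTcKO cells and by 0.47 ± 0.12 (adjusted p = 0.00774) in YTcKO against control cells. The last was lost without control library 1 (log2 change 0.32, adjusted p = 0.117), YTcKO library 1 (0.46, adjusted p = 0.0749) or YTcKO library 2 (0.49, adjusted p = 0.0602). Insig2, the paralog that also retains SCAP, had 38.9 and 33.3 scaled CPM in YTcKO+H151 cells, 41.1 and 45.2 in YTcKO cells and 42.2 and 39.5 in control cells. Both YTcKO+H151 libraries lay below both YTcKO libraries, at -0.25 ± 0.10 (adjusted p = 0.0525), just short of the threshold. It passed without YTcKO+H151 library 1 (-0.36, adjusted p = 0.0123) and by edgeR. The difference of Insig2 was -0.18 ± 0.10 (adjusted p = 0.234) in YTcKO+H151 and 0.08 ± 0.10 (adjusted p = 0.601) in YTcKO against control cells.

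Srebf2, the gene of SREBP2, had 124 and 191 scaled CPM in YTcKO+H151 cells, 130.3 and 118 in YTcKO cells and 99.5 and 117 in control cells. The YTcKO+H151 libraries were far apart, library 1 lying among the YTcKO libraries and library 2 above all others. Srebf2 rose by 0.51 ± 0.14 (adjusted p = 0.0129) against control cells, a call lost without control library 1 (log2 change 0.40, adjusted p = 0.135) or YTcKO+H151 library 2 (0.20, adjusted p = 0.135). Without YTcKO+H151 library 1 that rise was 0.82. Its other differences were 0.31 ± 0.14 (adjusted p = 0.0821) against YTcKO cells and 0.20 ± 0.14 (adjusted p = 0.297) between YTcKO and control cells. The difference against YTcKO cells passed without YTcKO+H151 library 1 (0.62, adjusted p = 5.94e-06), with quantile normalization (0.52, adjusted p = 0.0112) and with equal totals (0.49, adjusted p = 0.00826). Scap, the escort of SREBP2, had 67.4 and 54.7 scaled CPM in YTcKO+H151 cells, 56.4 and 61.3 in YTcKO cells and 66.2 and 61.8 in control cells. The YTcKO+H151 libraries overlapped both other groups and the YTcKO libraries lay just under the control libraries. The differences were -0.07 ± 0.10 (adjusted p = 0.653) in YTcKO+H151 against control, 0.04 ± 0.10 (adjusted p = 0.746) in YTcKO+H151 against YTcKO and -0.12 ± 0.10 (adjusted p = 0.383) in YTcKO against control cells. Stard4, a soluble carrier that moves cholesterol between membranes and an SREBP2 target, had 49.9 and 65.0 scaled CPM in YTcKO+H151 cells, 38.7 and 35.5 in YTcKO cells and 37.1 and 43.8 in control cells. It rose in YTcKO+H151 cells, by 0.61 ± 0.12 (adjusted p = 0.000596) against YTcKO and by 0.49 ± 0.12 (adjusted p = 0.00617) against control cells. The call against control cells was lost without control library 1 (log2 change 0.37, adjusted p = 0.0949) or YTcKO+H151 library 2 (0.30, adjusted p = 0.0694). YTcKO and control cells differed by -0.12 ± 0.12 (adjusted p = 0.486).

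**Figure D4:**
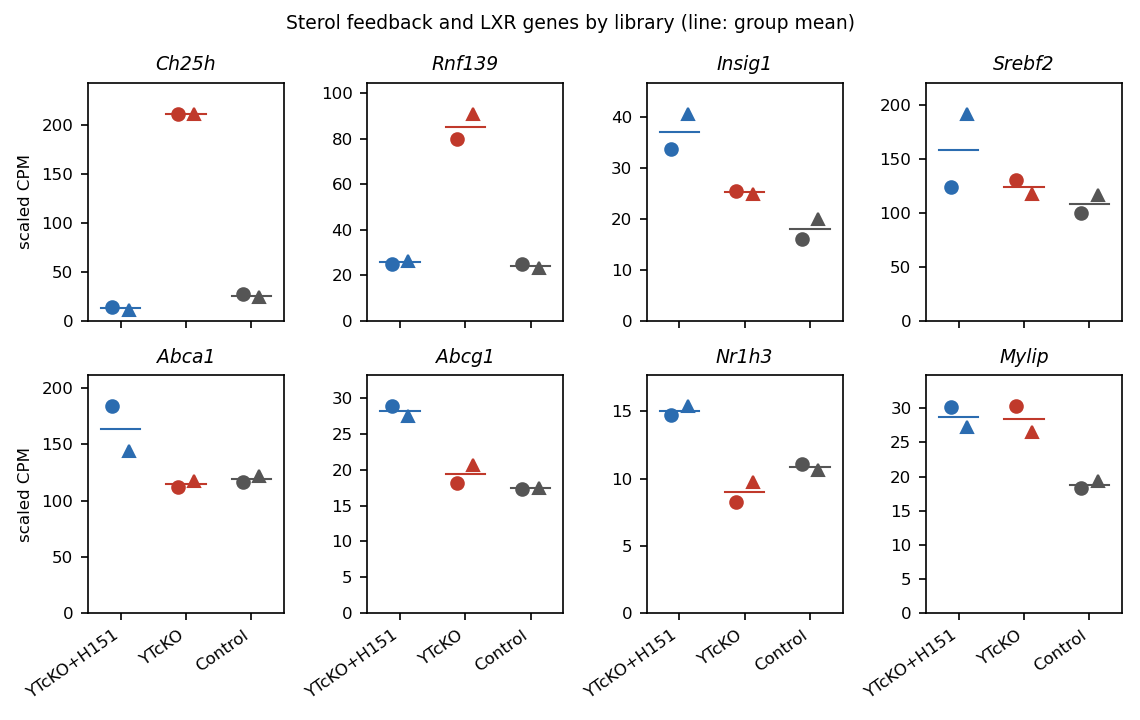
Scaled CPM per library of Ch25h, Rnf139, Insig1, Srebf2, Abca1, Abcg1, Nr1h3 and Mylip, with YTcKO+H151 at the left, YTcKO in the middle and control at the right; points are libraries (circle 1, triangle 2), lines are group means and each axis starts at 0. Ch25h and Rnf139 are highest in both YTcKO libraries, Insig1, Abca1, Abcg1 and Nr1h3 in both YTcKO+H151 libraries, and Mylip is higher in both groups with Cre than in control.

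Of the 5 genes of the LXR and efflux arm, 4 rose in YTcKO+H151 against control cells, 3 against YTcKO cells, and 1, Mylip, in YTcKO against control cells. Abca1, which loads cholesterol onto lipid-poor apolipoprotein, had 184 and 144 scaled CPM in YTcKO+H151 cells, 113 and 118 in YTcKO cells and 116 and 122 in control cells. YTcKO and control libraries lay together (-0.05 ± 0.09, adjusted p = 0.742) and both YTcKO+H151 libraries above them, by 0.50 ± 0.09 (adjusted p = 0.000425) against YTcKO and by 0.45 ± 0.09 (adjusted p = 0.00203) against control cells. Without YTcKO+H151 library 1 these changes were 0.32 against YTcKO and 0.27 against control cells, and both passed. Abcg1, which exports cholesterol to high-density lipoprotein, had 28.9 and 27.6 scaled CPM in YTcKO+H151 cells, 18.1 and 20.7 in YTcKO cells and 17.3 and 17.5 in control cells. It rose by 0.52 ± 0.11 (adjusted p = 0.00166) against YTcKO and 0.67 ± 0.11 (adjusted p = 0.000458) against control cells, and YTcKO and control cells differed by 0.15 ± 0.11 (adjusted p = 0.363). Nr1h3, which encodes LXRα and is abundant in macrophages and adipocytes, had 14.7 and 15.4 scaled CPM in YTcKO+H151 cells, 8.27 and 9.71 in YTcKO cells and 11.1 and 10.7 in control cells. It rose by 0.69 ± 0.14 (adjusted p = 0.00104) against YTcKO cells and by 0.43 ± 0.14 (adjusted p = 0.0378) against control cells. The call against control cells was lost without control library 1 (log2 change 0.46, adjusted p = 0.111), control library 2 (0.41, adjusted p = 0.177), YTcKO+H151 library 1 (0.46, adjusted p = 0.0803) or YTcKO+H151 library 2 (0.40, adjusted p = 0.133), and with quantile normalization (0.41, adjusted p = 0.0513). YTcKO and control cells differed by -0.25 ± 0.14 (adjusted p = 0.191). Nr1h2, the broadly expressed LXRβ, had 41.4 and 43.9 scaled CPM in YTcKO+H151 cells, 49.7 and 47.5 in YTcKO cells and 41.6 and 43.5 in control cells. It passed in no comparison. The differences were 0.00 ± 0.09 (adjusted p = 0.987) in YTcKO+H151 against control, -0.18 ± 0.09 (adjusted p = 0.102) in YTcKO+H151 against YTcKO and 0.19 ± 0.09 (adjusted p = 0.112) in YTcKO against control cells.

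Within the YTcKO+H151 group, Abca1 and, by a small margin, Abcg1 were higher in library 1, as were the macrophage sum (4274 and 3501 scaled CPM in libraries 1 and 2) and the adipocyte sum (2274 and 1473), whereas the 18 enzymes, Nr1h2 and Nr1h3 were higher in library 2. The part of these markers in the rise of Abca1, Abcg1 and Nr1h3 was not tested. Mylip, the ubiquitin ligase induced by LXRs, had 30.1 and 27.3 scaled CPM in YTcKO+H151 cells, 30.3 and 26.6 in YTcKO cells and 18.3 and 19.3 in control cells. The groups with Cre overlapped each other (0.02 ± 0.11, adjusted p = 0.927) and both lay above control cells, by 0.58 ± 0.11 (adjusted p = 0.00108) with H-151 and by 0.57 ± 0.11 (adjusted p = 0.000822) without it.

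Fatty acid synthesis, which SREBP1 (Srebf1) drives, moved in the same direction as the sterol enzymes. Of 14 genes of this list all 14 rose in YTcKO+H151 against control cells (11.5% of all genes tested), 8 in YTcKO+H151 against YTcKO cells (19.4%) and 9 in YTcKO against control cells (18.2%). Scd1, the stearoyl-CoA desaturase, had 457 and 456 scaled CPM in YTcKO+H151 cells, 292 and 298 in YTcKO cells and 177 and 189 in control cells. It rose by 1.32 ± 0.06 (adjusted p = 9.01e-10) in YTcKO+H151 against control cells, by 0.63 ± 0.06 (adjusted p = 6.49e-07) against YTcKO cells, and by 0.69 ± 0.06 (adjusted p = 2.81e-07) in YTcKO against control cells. Fasn, fatty acid synthase, rose in YTcKO+H151 cells by 0.76 ± 0.07 (adjusted p = 8.41e-07) against control and 0.50 ± 0.07 (adjusted p = 2.53e-05) against YTcKO cells. The lipogenic regulator Thrsp rose by 2.06 ± 0.24 (adjusted p = 1.03e-05) against control and 1.66 ± 0.24 (adjusted p = 3.09e-05) against YTcKO cells; it is abundant in adipocytes, whose 8 measured markers rose too. The elongase Elovl6 rose by 0.85 ± 0.12 (adjusted p = 3.45e-05) against YTcKO cells and the acyl-CoA synthetase Acsl3 by 0.70 ± 0.08 (adjusted p = 1.72e-05) against control cells. The desaturase Fads2 rose in YTcKO against control cells by 0.73 ± 0.12 (adjusted p = 0.000169), the carboxylase Acaca by 0.55 ± 0.09 (adjusted p = 0.000256) and the elongase Elovl5 by 0.38 ± 0.07 (adjusted p = 0.000463). The change of Fads2 was 0.48 without control library 1. Srebf1 itself had 68.7 and 66.0 scaled CPM in YTcKO+H151 cells, 59.8 and 59.3 in YTcKO cells and 45.6 and 57.5 in control cells. It rose in YTcKO+H151 against control cells by 0.39 ± 0.10 (adjusted p = 0.00829), a call lost without control library 1 (log2 change 0.23, adjusted p = 0.158). Its differences were 0.18 ± 0.10 (adjusted p = 0.168) in YTcKO+H151 against YTcKO and 0.21 ± 0.10 (adjusted p = 0.108) in YTcKO against control cells. They passed with equal totals (0.35, adjusted p = 0.00733, YTcKO+H151 against YTcKO) and without control library 2 (0.38, adjusted p = 0.0139, YTcKO against control).

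The isoprenoid branch diverts farnesyl diphosphate to ubiquinone and protein prenylation. Of its 13 genes, 6 fell in YTcKO+H151 against YTcKO cells (21.4% of all genes tested). A further count, 3 of 13 higher in YTcKO against control cells, was near the 18.2% of all genes. In YTcKO+H151 against control cells limma, edgeR and DESeq2 called 0. At an unadjusted limma p under 0.05, 3 were lower, where 2311 of the 13648 genes tested were lower. Pdss1, which makes the ubiquinone side chain, had 2.42 and 2.63 scaled CPM in YTcKO+H151 cells, 5.49 and 7.32 in YTcKO cells and 2.85 and 2.67 in control cells. It rose by 0.97 ± 0.19 (adjusted p = 0.000992) in YTcKO against control cells and changed by -1.06 ± 0.19 (adjusted p = 0.00035) in YTcKO+H151 against YTcKO cells. Coq2, the next enzyme of ubiquinone synthesis, changed by -0.50 ± 0.13 (adjusted p = 0.00613) with H-151 over YTcKO cells and by 0.45 ± 0.13 (adjusted p = 0.0152) in YTcKO over control cells. The first was lost without YTcKO library 1 (log2 change -0.44, adjusted p = 0.0685) and the second without control library 1 (log2 change 0.46, adjusted p = 0.0622), control library 2 (0.44, adjusted p = 0.0797) or YTcKO library 1 (0.39, adjusted p = 0.122). Ggps1, geranylgeranyl diphosphate synthase, changed by -0.33 ± 0.07 (adjusted p = 0.00196) with H-151 over YTcKO cells, a call lost with quantile normalization (-0.16, adjusted p = 0.101) and with equal totals (-0.16, adjusted p = 0.0949). In YTcKO over control cells it changed by 0.25 ± 0.07 (adjusted p = 0.0157), lost without control library 1 (log2 change 0.27, adjusted p = 0.0596), control library 2 (0.24, adjusted p = 0.0959), YTcKO library 1 (0.23, adjusted p = 0.132) or YTcKO library 2 (0.28, adjusted p = 0.0653), and under each of the 3 other scalings (lowest change 0.09, with quantile normalization). Pggt1b, a prenyltransferase subunit, changed by -0.31 ± 0.08 (adjusted p = 0.00659) with H-151, lost without YTcKO library 1 (log2 change -0.27, adjusted p = 0.081) or YTcKO+H151 library 2 (-0.23, adjusted p = 0.056). It was lost, too, with quantile normalization (-0.17, adjusted p = 0.102) and with equal totals (-0.13, adjusted p = 0.192), and Coq2 in YTcKO over control cells with equal totals (0.30, adjusted p = 0.0815).

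Oxysterol and sterol ester genes moved in both directions. Ch25h, which makes an oxysterol that retains SREBP2 through INSIG and which interferon induces in mouse macrophages, had 14.5 and 10.9 scaled CPM in YTcKO+H151 cells, 211 and 212 in YTcKO cells and 27.1 and 23.9 in control cells. It rose by 3.01 ± 0.11 (adjusted p = 2.61e-12) in YTcKO against control cells. With H-151 it changed by -3.97 ± 0.11 (adjusted p = 5.67e-14) against YTcKO cells and lay below control cells, at -0.96 ± 0.11 (adjusted p = 1.43e-05). Dhrs9, a retinol and steroid dehydrogenase, had 2.74 and 2.06 scaled CPM in YTcKO+H151 cells, 20.3 and 16.4 in YTcKO cells and 5.55 and 5.55 in control cells. Like Ch25h, it was highest in both YTcKO libraries. Its change was -0.95 ± 0.18 (adjusted p = 0.000863) in YTcKO+H151 against control cells and -2.51 ± 0.18 (adjusted p = 7.1e-09) against YTcKO cells. Between YTcKO and control cells it was 1.56 ± 0.18 (adjusted p = 2.94e-06). Nceh1, which hydrolyses cholesterol esters, rose by 0.59 ± 0.08 (adjusted p = 5.9e-05) in YTcKO+H151 and by 0.80 ± 0.08 (adjusted p = 9.18e-07) in YTcKO against control cells. Soat1, which makes those esters, rose in YTcKO+H151 cells by 0.26 ± 0.07 (adjusted p = 0.02) against control and 0.24 ± 0.07 (adjusted p = 0.0152) against YTcKO cells. These calls were lost without control library 1 (log2 change 0.21, adjusted p = 0.154) or YTcKO+H151 library 1 (0.21, adjusted p = 0.0781) and, in the second, without YTcKO library 2 (log2 change 0.17, adjusted p = 0.194) or YTcKO+H151 library 1 (0.20, adjusted p = 0.0637). The oxysterol hydroxylase Cyp7b1 rose by 0.35 ± 0.11 (adjusted p = 0.0214) against YTcKO cells, lost without YTcKO library 1 (log2 change 0.39, adjusted p = 0.0726), YTcKO library 2 (0.31, adjusted p = 0.14) or YTcKO+H151 library 1 (0.20, adjusted p = 0.238). Over the 7 genes of this list 2 rose and 2 fell in YTcKO+H151 against control cells (11.5% and 11.4% of all genes tested). With H-151 over YTcKO cells 2 rose and 2 fell (19.4% and 21.4%), and in YTcKO against control cells 3 rose (18.2%). With so few genes these counts are given as a description.

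The machinery that cleaves SREBPs and degrades sterol regulators was represented by 11 genes. Rnf139, an endoplasmic reticulum ubiquitin ligase, had 25.2 and 26.1 scaled CPM in YTcKO+H151 cells, 79.8 and 91.0 in YTcKO cells and 25.0 and 23.4 in control cells. The YTcKO libraries lay above the other 4. Rnf139 rose by 1.77 ± 0.10 (adjusted p = 2.8e-10) in YTcKO against control cells, changed by -1.69 ± 0.10 (adjusted p = 4.74e-10) in YTcKO+H151 against YTcKO cells. It differed by 0.08 ± 0.10 (adjusted p = 0.617) between YTcKO+H151 and control cells. Aup1, an adaptor of the same degradation pathway, changed by -0.19 ± 0.07 (adjusted p = 0.0398) in YTcKO+H151 against YTcKO and by 0.28 ± 0.07 (adjusted p = 0.00704) in YTcKO against control cells. The call against YTcKO cells was lost without YTcKO library 1 (log2 change -0.22, adjusted p = 0.0987), YTcKO library 2 (-0.17, adjusted p = 0.205), YTcKO+H151 library 1 (-0.20, adjusted p = 0.0668) or YTcKO+H151 library 2 (-0.19, adjusted p = 0.0805). The YTcKO call was lost without control library 2 (log2 change 0.22, adjusted p = 0.0977) or YTcKO library 2 (0.25, adjusted p = 0.0821). Both were lost with equal totals, at -0.02, adjusted p = 0.859, in YTcKO+H151 against YTcKO and 0.11, adjusted p = 0.218, in YTcKO against control cells. Erlin2, a scaffold protein of the endoplasmic reticulum, rose by 0.32 ± 0.09 (adjusted p = 0.00608) in YTcKO+H151 against YTcKO cells, lost without YTcKO library 2 (log2 change 0.30, adjusted p = 0.0541). Rnf145, another ubiquitin ligase, changed by -0.31 ± 0.08 (adjusted p = 0.0135) in YTcKO+H151 against control cells, lost without control library 1 (log2 change -0.27, adjusted p = 0.117) or YTcKO+H151 library 1 (-0.25, adjusted p = 0.0718). In all, 1 of the 11 genes fell in YTcKO+H151 against control cells (11.4% of all genes tested), 1 rose and 2 fell in YTcKO+H151 against YTcKO cells (19.4% and 21.4%), and 2 rose in YTcKO against control cells (18.2%). These counts were at or below the shares over all genes.

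Of 17 genes of lysosomal and intracellular sterol transport, 6 rose and 1 fell in YTcKO+H151 against control cells (11.5% and 11.4% of all genes tested), and 6 rose and 1 fell in YTcKO against control cells (18.2% and 14.2%). Against YTcKO cells, 3 rose and 1 fell in YTcKO+H151 cells, below the 19.4% and 21.4% of all genes. Lipa, the acid lipase that frees cholesterol from lipoprotein esters, had 211 and 221 scaled CPM in YTcKO+H151 cells, 208 and 197 in YTcKO cells and 123 and 129 in control cells. It rose by 0.77 ± 0.07 (adjusted p = 4.91e-07) in YTcKO+H151 and 0.68 ± 0.07 (adjusted p = 5.8e-07) in YTcKO against control cells. Npc2, which hands that cholesterol on within the lysosome, rose by 0.57 ± 0.07 (adjusted p = 1.57e-05) and 0.57 ± 0.07 (adjusted p = 5.27e-06) in the same comparisons. Its membrane partner Npc1 rose by 0.52 ± 0.08 (adjusted p = 0.000199) and 0.42 ± 0.08 (adjusted p = 0.000721). Stard3, a sterol tether of late endosomes, had 34.0 and 32.6 scaled CPM in YTcKO+H151 cells, 48.6 and 55.1 in YTcKO cells and 24.5 and 26.8 in control cells. It rose by 0.99 ± 0.10 (adjusted p = 7.18e-07) in YTcKO against control and changed by -0.62 ± 0.10 (adjusted p = 9.58e-05) in YTcKO+H151 against YTcKO cells. Osbpl8, a lipid exchange protein, rose by 0.49 ± 0.08 (adjusted p = 0.000287) in YTcKO+H151 against control cells. Gramd1b, which carries plasma membrane cholesterol inward, rose by 0.38 ± 0.15 (adjusted p = 0.0459) against YTcKO cells, lost without YTcKO library 1 (log2 change 0.49, adjusted p = 0.0752), YTcKO library 2 (0.28, adjusted p = 0.286) or YTcKO+H151 library 1 (0.17, adjusted p = 0.428), and was 0.60 without YTcKO+H151 library 2. Osbpl2 rose by 0.29 ± 0.11 (adjusted p = 0.0467), lost without YTcKO library 1 (log2 change 0.12, adjusted p = 0.485), YTcKO+H151 library 1 (0.28, adjusted p = 0.095) or YTcKO+H151 library 2 (0.30, adjusted p = 0.0735), and was 0.47 without YTcKO library 2.

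Of 13 further LXR targets and partners, 4 rose in YTcKO+H151 against control cells (11.5% of all genes tested), and 4 rose and 2 fell in YTcKO against control cells (18.2% and 14.2%). The comparison of YTcKO+H151 with YTcKO cells had 3 that rose and 1 that fell, near or below the 19.4% and 21.4% of all genes. Rxra, the receptor that pairs with LXRs, had 83.4 and 82.5 scaled CPM in YTcKO+H151 cells, 51.8 and 52.2 in YTcKO cells and 75.4 and 76.6 in control cells. It was lowest in both YTcKO libraries, with 0.66 ± 0.07 (adjusted p = 2.24e-06) in YTcKO+H151 against YTcKO and -0.54 ± 0.07 (adjusted p = 2.83e-05) in YTcKO against control cells. Nrip1, a corepressor of nuclear receptors, followed the same course, with 0.61 ± 0.08 (adjusted p = 7.11e-06) in YTcKO+H151 against YTcKO and -0.41 ± 0.08 (adjusted p = 0.00055) in YTcKO against control cells. Rxrb, the paralog of Rxra, changed the other way, by -0.32 ± 0.10 (adjusted p = 0.0234) in YTcKO+H151 against YTcKO and 0.51 ± 0.10 (adjusted p = 0.00126) in YTcKO against control cells. The call against YTcKO cells was lost without YTcKO library 2 (log2 change -0.24, adjusted p = 0.183), YTcKO+H151 library 1 (-0.31, adjusted p = 0.0628) or YTcKO+H151 library 2 (-0.33, adjusted p = 0.0501), and with equal totals (-0.14, adjusted p = 0.264). Pltp, which transfers phospholipid between lipoproteins, rose by 1.00 ± 0.19 (adjusted p = 0.00123) in YTcKO+H151 against control cells, and Lpcat3, which remodels phospholipids, by 0.47 ± 0.08 (adjusted p = 0.00047). The change of Pltp was 0.66 without control library 2. Smpdl3a, a phosphodiesterase, rose by 0.52 ± 0.09 (adjusted p = 0.000387) against control and 0.33 ± 0.09 (adjusted p = 0.0066) against YTcKO cells. The call against YTcKO cells was lost without YTcKO library 1 (log2 change 0.33, adjusted p = 0.0561), YTcKO library 2 (0.33, adjusted p = 0.0563) or YTcKO+H151 library 1 (0.21, adjusted p = 0.0885).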

How the data were processed

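RNA was measured in 6 QuantSeq 3′ libraries, 2 per group. STAR 2.5.3a, featureCounts, edgeR and the mm10 build are named in the submitters' processing notes; annotation, strand setting and filters are not given in the sources used here. In the deposited table each value is a signal, namely CPM relative to an effective library size, as judged from the values: all were whole multiples of 1 step per column within 0.0006, and columns summed to 955838 to 1083568. All 6 columns were used. The plan was written for plain CPM and was applied to this unit unchanged. Recovered reads (100% of values whole) served the alternative tests.

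The 13648 genes that reached 1 scaled CPM in 2 or more libraries were fitted as log2(scaled CPM + 1) with limma 3.58.1 in R 4.3.3, with 1 mean per group over all 6 libraries and a variance trend; moderation raised the residual degrees of freedom to 15.7, against 3 without it. Benjamini-Hochberg adjustment covered every gene in the fit, and adjusted p under 0.05 was called. The fit was tested on simulated data. All 28 members passed the filter. Alternatives were pseudocounts of 0.25 and 4, other filters and scalings, fits of 2 groups, no variance trend, a replicate block, each library left out, edgeR 4.0.16 and DESeq2 1.42.0 on recovered reads. Members and gene lists were chosen with earlier results of these data known. All members were named, with Srebf1, Ch25h, Yap1 and Wwtr1; of each other list, up to 4 called genes per comparison with the smallest p and no overlap between groups. Some genes that this rule names are not reported here. Gene positions and exon overlaps came from GENCODE M21 (GRCm38, the build of mm10), and promoter windows from RefSeq (GRCm38.p6).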

Additional observations from a re-analysis of the deposited data

How the results depend on the processing

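Counts of genes and members past an adjusted p of 0.05 moved as follows. In YTcKO against control cells genes called lower numbered 1938; they were 1266 with a filter at a mean of 10, 2987 with quantile normalization, 4054 with columns scaled to equal totals, 1217 by DESeq2, and 1165 to 1252 with 1 library left out. Members higher numbered 12, then 6 with equal totals, 6 without a variance trend and 6 to 13 with 1 library left out; members lower numbered 0, then 1 with quantile normalization and 2 with equal totals. In YTcKO+H151 against YTcKO cells genes higher numbered 2643, then 1676 with the filter at 10 and 4770 with equal totals, and genes lower 2923, then 1930 with equal totals; members lower numbered 0, then 1 by edgeR and 0 to 1 with 1 library left out. In YTcKO+H151 against control cells genes lower numbered 1562, then 937 without a variance trend and 924 to 1499 with 1 library left out, and genes higher 1570, then 951 to 1373.

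Signs that turned belonged to differences that were not called. In YTcKO against control cells these were Sqle (-0.002 with median, -0.094 with quantile and -0.107 with equal-total scaling), Hsd17b7 (-0.075 with quantile and -0.087 with equal-total scaling, -0.009 to 0.159 with 1 library left out), Insig2 (-0.042 and -0.084 with these scalings), Ebp (-0.013 and -0.014), Mvk (-0.044 with equal totals) and Abcg1 (-0.010). With 1 library left out, YTcKO+H151 against YTcKO ranged from -0.103 to 0.192 for Scap, -0.076 to 0.107 for Mylip and -0.266 to 0.677 for Idi1. YTcKO+H151 against control ranged from -0.221 to 0.074 for Scap and -0.038 to 0.044 for Nr1h2, which also turned with median scaling (-0.028), quantile normalization (-0.015) and DESeq2 (-0.001). The cause was not tested.

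Whether libraries were paired between groups, by number or otherwise, could not be decided from so few libraries per group. Deviations of same-numbered libraries correlated at 0.154 between YTcKO+H151 and control, -0.128 between YTcKO+H151 and YTcKO, and -0.068 between YTcKO and control. With the replicate block 25, 19 and 12 members were higher in these comparisons, and no member was lower; the call gained was Srebf2 in YTcKO+H151 against YTcKO cells (0.31, adjusted p = 0.0491). With the numbers crossed, a setting chosen after seeing the data, 25, 20 and 15 were higher, and 1 was lower in YTcKO+H151 against YTcKO cells. Over single genes, 2214 values under alternatives kept their direction and side of the threshold, 175 lost the call, 26 gained it and 23 changed sign.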
